A study of Mus musculus with 8 samples.

Results

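Mouse cells show peptides to T cells on major histocompatibility complex (MHC) proteins. The genes followed here are 2 class I heavy chain genes, H2-K1 and H2-Q7, 3 class II chain genes, H2-Aa, H2-Ab1 and H2-Eb1, and Cd74. They were chosen by name, all 6 were found among the 2000 genes of the deposited table, and their levels are described across 7 cell classes of a mouse tumour. The summed H2-K1 and H2-Q7 UMIs (unique molecular identifiers, which count captured RNA molecules) are called class I below, and the summed H2-Aa, H2-Ab1 and H2-Eb1 UMIs class II. In brief, class I was lowest in hepatoma cells and far higher in each of the other 6 classes, while class II and Cd74 were highest in dendritic cells, intermediate in macrophages and monocytes, and higher in hepatoma cells than in T cells, neutrophils and fibroblasts.

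Class I molecules display peptides made inside the cell to CD8 T cells, and nearly all nucleated cells carry them. H2-K1 encodes a classical class I heavy chain, and H2-Q7 encodes a nonclassical one that belongs to the Qa-2 molecules. Class II molecules are pairs of an alpha and a beta chain that display peptides from the endosomal route to CD4 T cells, and are known mainly from dendritic cells, B cells and macrophages. H2-Aa encodes the alpha and H2-Ab1 the beta chain of the I-A molecule, and H2-Eb1 encodes the beta chain of I-E. Cd74 is the invariant chain, which holds new class II molecules until they reach the endosome. Interferon gamma is known to induce both routes, and class II and Cd74 genes share the transactivator Ciita.

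The tumours grew from Hepa1-6, a mouse hepatoma cell line, either unedited or edited in Soat1, a cholesterol-esterifying enzyme, and the animals received intraperitoneal PBS or an antibody against PD-1. The labels therefore give 4 groups (unedited with PBS, unedited with antibody, edited with PBS, edited with antibody), with 8 entries because each group has a cDNA and an oligo entry. Titles call the edited tumours knockouts, the genotype field calls them knockdowns, and the strain, age and number of animals are not given in the sources used here. Cells were released by enzymatic digestion of whole tumours, with red blood cells lysed, and were sequenced from the 3′ ends of transcripts on the DNBelab C4 droplet platform. The table holds 53528 cells, and the final digit of each name puts a cell in 1 of 6 sets. Nothing maps the sets to the 4 groups, so the table counts as 1 sample, no genotype or treatment is compared, and no p-value is given.

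The H2 genes lie in the MHC on chromosome 17 of the mouse build GRCm38.p6. The genes span 33996012 to 34000619 for H2-K1, 34263227 to 34269418 for H2-Ab1, 34282744 to 34287823 for H2-Aa, 34305867 to 34316674 for H2-Eb1 and 35439140 to 35443773 for H2-Q7. Cd74 lies on another chromosome. RefSeq promoter entries matched 4 of the 6 genes, H2-K1, H2-Q7, H2-Aa and H2-Eb1. Their 150 bases before the start are shown because the class I and class II genes are set against each other below. The start is that of the promoter entry, and of the 2 entries of H2-K1 the first was used. The H2-K1 stretch lies inside the gene span given above, and the H2-Q7 stretch overlaps its span. Positions before the start therefore depend on the entry chosen. Capitals mark matches to the letters of known MHC promoter elements.
H2-K1, chr17:34000348-34000497, minus strand: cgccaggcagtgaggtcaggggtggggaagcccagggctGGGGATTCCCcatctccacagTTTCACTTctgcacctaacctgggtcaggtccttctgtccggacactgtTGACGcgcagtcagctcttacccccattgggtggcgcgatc
H2-Q7, chr17:35439005-35439154, plus strand: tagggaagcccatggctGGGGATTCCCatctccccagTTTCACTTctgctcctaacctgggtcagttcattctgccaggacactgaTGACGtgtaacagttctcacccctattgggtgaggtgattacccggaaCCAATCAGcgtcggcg
H2-Aa, chr17:34287824-34287973, minus strand: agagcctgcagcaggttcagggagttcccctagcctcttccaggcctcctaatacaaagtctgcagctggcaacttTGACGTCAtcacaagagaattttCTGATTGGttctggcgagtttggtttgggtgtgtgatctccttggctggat
H2-Eb1, chr17:34305717-34305866, plus strand: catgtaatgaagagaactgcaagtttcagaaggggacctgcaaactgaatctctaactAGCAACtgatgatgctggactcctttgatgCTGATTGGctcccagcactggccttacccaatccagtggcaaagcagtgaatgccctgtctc

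The motif search used both strands of the same 150 bases in 32851 RefSeq promoter entries of the same build. The class I promoters of H2-K1 and H2-Q7 both held a kappa B site (the first run of capitals in each), found in 0.0548% of all entries, and the letters TTTCACTT of the interferon-stimulated element of class I genes, found in 0.688%. In H2-K1 they began 111 and 90 bases before the start, and in H2-Q7 they began 133 and 113 bases before it. Neither element was matched in H2-Aa or H2-Eb1. Both class II promoters held the Y box letters CTGATTGG, found in 3.16% of all entries, from 51 to 44 bases before the start in H2-Aa and from 62 to 55 in H2-Eb1. H2-Q7 held the same letters on the reverse strand from 16 to 9 bases before its start, so the Y box letters matched in 3 of the 4. The X2 core TGACG, in 13.3% of all entries, was matched in H2-K1, H2-Q7 and, on both strands with an overlap, in H2-Aa, and the X1 core AGCAAC, in 7.75%, was matched in H2-Eb1 alone among the 4. The CCAAT core ATTGG, part of the Y box and in capitals only there, matched in 4 of 4 and in 24.5% of all entries. A match is a description of letters and does not show that a factor binds.

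Cells were assigned to classes by marker genes, none of them a gene of interest here. Over all 6 sets the gate held 25477 hepatoma cells, 12863 T cells, 3221 macrophages, 825 fibroblasts, 772 monocytes, 769 dendritic cells and 487 neutrophils, and left 8414 cells (15.7%) unassigned. UMI counts could be recovered for set 1, where 68 of 9370 cells (0.726%) were called doublets and left out. The set 1 classes then held 5370 hepatoma cells, 1266 T cells, 501 macrophages, 84 neutrophils, 80 dendritic cells, 74 fibroblasts and 62 monocytes. Median depth was 19349 UMIs for a hepatoma cell against 1341.5 for a neutrophil, with the other classes between 2785 and 6771.5, and the 2000 genes hold 15.0% of all UMIs. Class markers were highest in their own class, which is built in because the same markers assigned the cells. The 11 macrophage markers summed to 13030 UMIs per 1000000 UMIs (CPM) in macrophages and to between 38.5 and 1024 elsewhere. The 10 hepatoma markers summed to 22897 CPM in hepatoma cells but still to between 2503 (T cells) and 6601 CPM (neutrophils) in the other classes, with none at 0. Intervals below are exact 95% intervals that cover counting error only, and levels are not divided by gene length because each UMI comes from the 3′ end of 1 molecule.

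H2-K1 separated hepatoma cells from all others. Its level was 45.6 CPM in hepatoma cells, 1315 in neutrophils, 1347 in fibroblasts, 1945 in monocytes, 2270 in dendritic cells, 2394 in T cells and 4353 in macrophages. The macrophage level was thus 95.4 times the hepatoma level (92.3 to 98.7), and the T cell level 52.5 times (51.0 to 54.0). Fibroblasts, the other non-immune class, stood at 29.5 times the hepatoma level (27.4 to 31.7), so the low value was not shared by fibroblasts. Among the immune classes, T cells had 0.550 (0.536 to 0.564), dendritic cells 0.521 (0.486 to 0.559), monocytes 0.447 (0.405 to 0.492) and neutrophils 0.302 (0.266 to 0.342) of the macrophage level. The intervals of dendritic and T cells overlapped, as did those of neutrophils and fibroblasts.

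H2-Q7 was highest in T cells among the 7 classes. It stood at 662 CPM in T cells (644 to 680), 285 in dendritic cells, 141 in macrophages, 118 in fibroblasts, 71.9 in monocytes, 51.4 in neutrophils and 5.39 in hepatoma cells. T cells carried 4.68 times the macrophage level (4.14 to 5.31) and 123 times the hepatoma level (114 to 133), and dendritic cells 2.02 times the macrophage level (1.60 to 2.52). The order of T cells and macrophages was therefore opposite for the 2 class I genes. H2-Q7 made up 21.7% of class I UMIs in T cells, 11.1% in dendritic cells and 10.6% in hepatoma cells, but 3.14% in macrophages. T cells held 73.3% of all H2-Q7 UMIs of set 1 with 13.6% of its cells. Among small classes, 34 natural killer cells had 842 CPM (683 to 1028) and 5 plasmacytoid dendritic cells 1924 CPM (1409 to 2567), the latter from 46 UMIs.

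**Figure D1:**
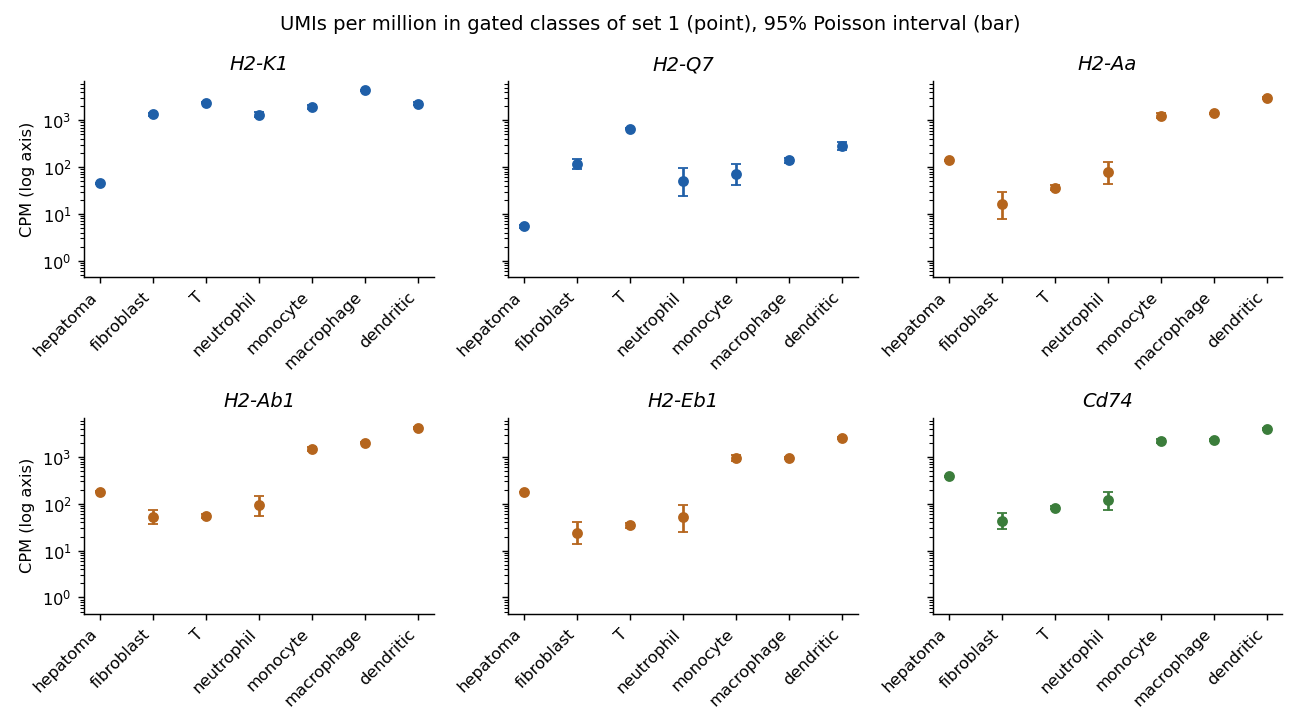
Level of each gene in the 7 classes of set 1, in CPM on a log axis, with points for the level and bars for the exact 95% Poisson interval. H2-K1 and H2-Q7 (blue) are lowest in hepatoma cells, while the class II genes (orange) and Cd74 (green) are highest in dendritic cells and lie higher in hepatoma cells than in fibroblasts, T cells and neutrophils.

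Class II followed another order. Summed class II reached 9654 CPM in dendritic cells, 4357 in macrophages, 3678 in monocytes, 502 in hepatoma cells, 221 in neutrophils, 125 in T cells and 93.4 in fibroblasts. Dendritic cells had 2.22 times the macrophage level (2.13 to 2.30), with H2-Eb1 at 2.74 times, H2-Aa at 2.11 times and H2-Ab1 at 2.05 times. Monocytes had 0.844 of the macrophage level (0.785 to 0.907), neutrophils 0.0507 (0.0367 to 0.0683) and T cells 0.0287 (0.0269 to 0.0307). H2-Eb1 did not separate monocytes, at 943 CPM, from macrophages, at 932, and the ratio of 1.01 had an interval from 0.873 to 1.17. B cells, a class of 18 cells, had 1905 CPM of class II and 2102 of Cd74, below macrophages for class II.

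Cd74, which spans 60803849 to 60812652 on chromosome 18 of GRCm38.p6, kept to the class II genes. Its level was 4008 CPM in dendritic cells, 2311 in macrophages, 2196 in monocytes, 385 in hepatoma cells, 118 in neutrophils, 83.2 in T cells and 43.5 in fibroblasts. The gap between dendritic cells and macrophages was smaller than for the class II chains, at 1.73 times (1.64 to 1.84). Per class II UMI, Cd74 was accordingly lowest in dendritic cells at 0.415 (0.391 to 0.440), stood at 0.530 (0.511 to 0.550) in macrophages, and was highest in hepatoma cells at 0.767 (0.759 to 0.776). The monocyte and macrophage levels of Cd74 did not separate, and the interval of their ratio ran from 0.864 to 1.04.

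The make-up of class II also differed by class. H2-Eb1 gave 35.8% of class II UMIs in hepatoma cells, 26.4% in dendritic cells and 21.4% in macrophages, and H2-Ab1 gave 36.5%, 42.7% and 46.3% in the same order. The hepatoma level of H2-Eb1 was 19.3% of the macrophage level (18.3 to 20.2) against 9.07% for H2-Ab1 (8.77 to 9.39) and 9.88% for H2-Aa (9.49 to 10.3). Hepatoma cells thus differed from macrophages not only in the level of class II UMIs but in the share that came from H2-Eb1. No protein was measured.

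The balance of class I and class II spanned the classes widely. Class I UMIs per class II UMI were 24.4 in T cells (22.9 to 26.0), 15.7 in fibroblasts, 6.19 in neutrophils (4.47 to 8.75), 1.03 in macrophages (1.00 to 1.06), 0.548 in monocytes, 0.265 in dendritic cells and 0.102 in hepatoma cells (0.0992 to 0.104). Hepatoma cells lay at the class II end, beyond dendritic cells, with 51.0 CPM of class I and 502 of class II against 2555 and 9654 in dendritic cells. Between T cells and macrophages the balance differed by 4.56 on the log2 scale (4.46 to 4.66).

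Counts of cells gave the same contrast after depth was made equal. When each cell was thinned to 1000 UMIs, 32.2% of hepatoma cells (30.9 to 33.5) kept a class II UMI, against 92.5% of dendritic cells, 77.8% of macrophages, 51.6% of monocytes, 14.3% of neutrophils, 8.77% of T cells and 6.76% of fibroblasts (2.23 to 15.1). Without thinning the hepatoma share was 89.5% at a median of 19349 UMIs and the T cell share 39.9% at 4851.5. T cells are not known for making class II in the mouse, and their share is printed as the value of a class that should lack it. For class I the thinned share was 5.55% in hepatoma cells (4.95 to 6.20) against 94.4% in macrophages, 93.9% in T cells, 87.5% in dendritic cells, 70.2% in neutrophils and 63.5% in fibroblasts, and 60.6% in hepatoma cells without thinning. H2-Q7 was kept in 49.0% of T cells and 0.633% of hepatoma cells.

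**Figure D2:**
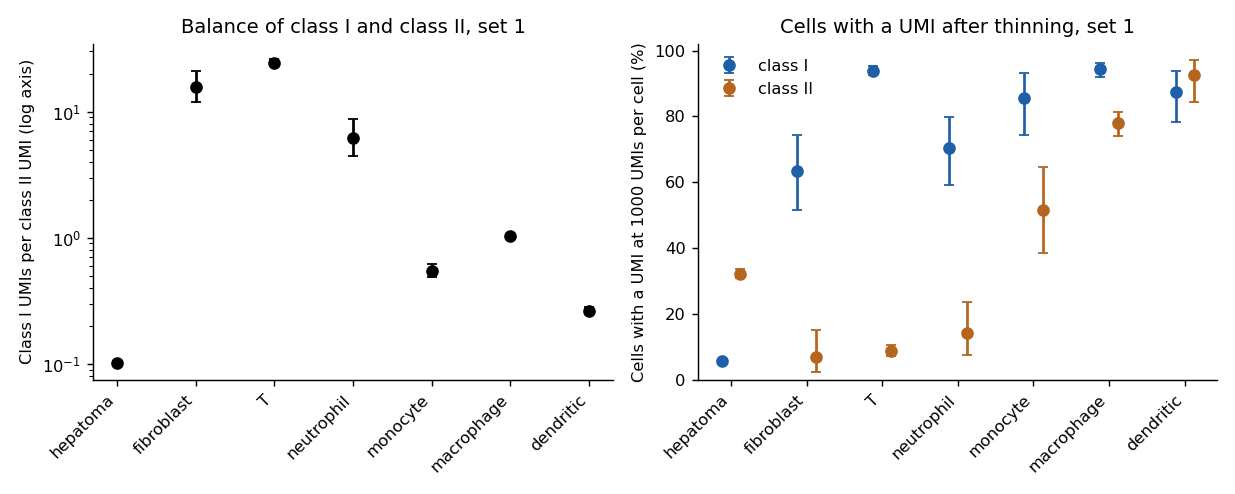
Left, class I UMIs per class II UMI in each class of set 1 on a log axis, with exact 95% intervals; right, the percentage of cells with a class I (blue) or class II (orange) UMI after thinning to 1000 UMIs per cell, with Clopper-Pearson intervals. Hepatoma cells have the lowest balance, 0.102, and their class II share of 32.2% lies above their class I share of 5.55%.

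Cells of 1 class differed among themselves. Per 10000 UMIs of a cell, class II had a median of 81.8 in dendritic cells, 26.0 in macrophages, 8.60 in monocytes, 2.87 in hepatoma cells and 0 in T cells. In monocytes the 10th to 90th percentile ran from 0 to 106, which reaches from the level of T cells to that of dendritic cells. H2-K1 had medians of 42.3 in macrophages, 25.2 in T cells (10th to 90th percentile 11.4 to 47.5) and 0.294 in hepatoma cells, in which the 90th percentile was 1.28 and the highest cell reached 146.

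Free RNA in droplets can place UMIs of other cells in hepatoma cells, so their levels were set beside those of genes of other cells. Hepatoma cells held 70.9% of all class II UMIs of set 1 and 76.0% of Cd74 UMIs, but 13.5% of class I UMIs, with 57.7% of the cells and 80.8% of all UMIs. The hepatoma level of each gene was taken as a percentage of the level in a class that carries it, not always the highest one. Lyz2, Ctss and Ptprc were set against macrophages. Monocytes had more Lyz2 (5030 against 869 CPM) and Ctss (2641 against 2166), and T cells more Ptprc (871 against 351). Against those classes the percentages would be lower. Class II and Cd74 stood at 9.07% to 19.3% of macrophages and 4.43% to 9.60% of dendritic cells. The macrophage genes chosen for this stood far lower. C1qa, a complement subunit, was at 0.265%, C1qc at 0.167% and the lysozyme gene Lyz2 at 0.279%. The class II route protease Ctss was at 0.629% and the pan-leukocyte gene Ptprc at 1.82%. Mpeg1, a gene with a class pattern like that of H2-Aa, was not among them. It had 41.7 CPM in hepatoma cells against 666 in macrophages, a smaller gap than for any of these. Dendritic markers Xcr1 and Clec9a stood at 0.0402% and 0.109% of dendritic cells, and Cd3d, a chain of the T cell receptor complex, at 0.659% of T cells. H2-K1, at 1.05% of macrophages and 1.91% of T cells, and H2-Q7, at 0.815% of T cells, lay above most of these marker genes and below the class II genes and Cd74. Other leukocyte genes lay on both sides of H2-K1 relative to macrophages. Coro1a (8.24 CPM in hepatoma cells against 506 in macrophages) and Lcp1 (17.8 against 1218) were above it. Laptm5 (10.4 against 1523) and Cd52 (9.12 against 974) were below it.

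The same percentages were read in the other direction. Class II and Cd74 in T cells reached 19.3% to 29.6% of the hepatoma level, in fibroblasts 11.3% to 29.0% and in neutrophils 28.6% to 55.3%. Afp, a hepatoma marker, reached 8.82% of the hepatoma level in T cells, 9.54% in fibroblasts and 28.5% in neutrophils, and the keratin Krt8 13.5%, 16.5% and 48.4%. The part of free hepatoma RNA in the class II UMIs of T cells, fibroblasts and neutrophils was not tested.

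Hepatoma cells without leukocyte UMIs had a slightly lower class II level. Of the 5370 hepatoma cells, 1215 had no UMI of 12 leukocyte genes (Ptprc, Tyrobp, Laptm5, Coro1a, Lcp1, Cd52, Lyz2, C1qa, C1qb, C1qc, Ctss, Fcer1g), at a median of 9565 UMIs. Their class II level was 458 CPM (447 to 469) against 502 over all hepatoma cells, Cd74 was 366 CPM and H2-K1 43.6 CPM (40.2 to 47.1). Their thinned class II share was 30.0% and their balance of class I to class II 0.106.

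**Figure D3:**
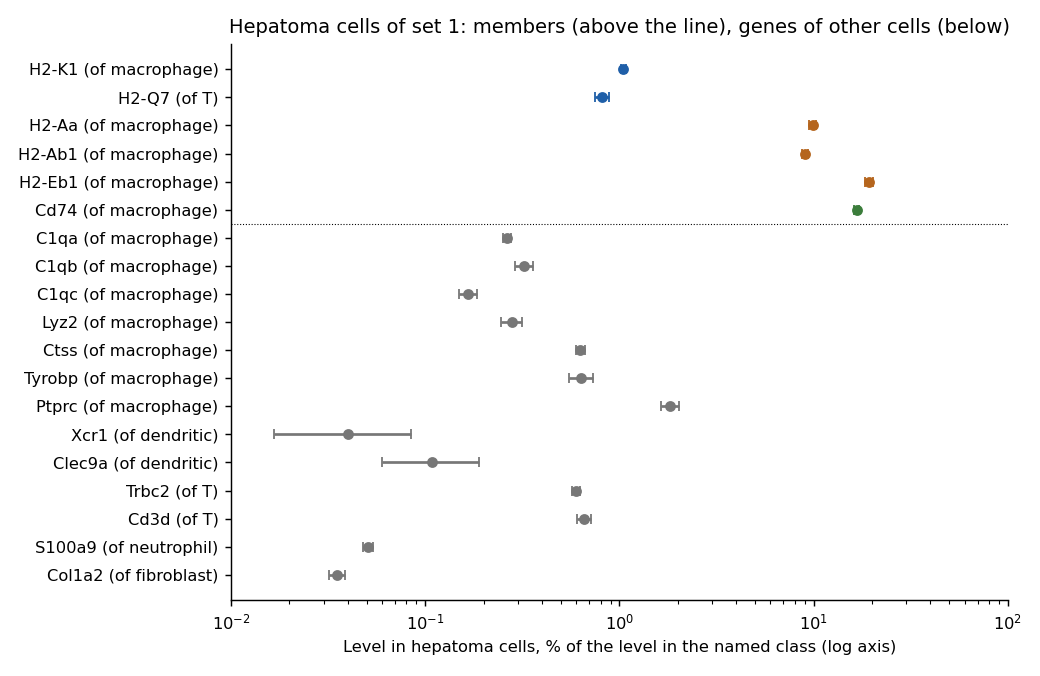
Level in hepatoma cells of set 1 as a percentage of the level in the class named beside each gene, on a log axis, with exact 95% intervals; coloured points are MHC genes and Cd74, grey points are genes of other cells. H2-Aa, H2-Ab1, H2-Eb1 and Cd74 lie between 9.07% and 19.3%, and the grey genes, which do not include Mpeg1, at or below 1.82%.

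Hepatoma cells with class II were then set beside those without. After thinning, 1729 hepatoma cells had a class II UMI and 3641 had none, at median depths of 20879 and 18737 UMIs before thinning, and ratios are of thinned UMIs, with against without. Cd74, which was not used in the split, had 536 against 256 CPM, a ratio of 2.09 (1.91 to 2.29). H2-DMa and H2-DMb2, chains of the molecule that loads peptide onto class II, had ratios of 2.61 (2.05 to 3.32) and 5.15 (2.28 to 12.7). H2-K1 did not separate, at 67.1 against 77.5 CPM, a ratio of 0.866 (0.692 to 1.08), nor did H2-Q7, at 1.15 (0.518 to 2.42). H2-Q1, a class I gene outside the class I sum, did, at 2.97 (1.53 to 5.90) from 24 against 17 UMIs.

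Many interferon-response genes were higher in the hepatoma cells that kept a class II UMI after thinning. The guanylate-binding protein genes had ratios of 1.98 for Gbp2 (1.70 to 2.31), 1.92 for Gbp6, 1.69 for Gbp4 and 1.40 for Gbp7, while the intervals of Gbp5, at 1.12 (0.712 to 1.74), and Gbp2b, at 0.702 (0.0134 to 8.74), spanned 1. Ratios were above 1 for the chemokine genes Cxcl9, at 2.34 (1.81 to 3.03), and Cxcl10, at 1.58, and for Cd274, which encodes PD-L1, at 1.51 (1.01 to 2.25). Isg15, a type I interferon target, had a ratio of 0.780 (0.495 to 1.20). Of 36 antigen presentation and interferon genes of the table, 18 had an interval above 1 against 9.96% of 1997 genes, and 2 had one below 1, Ctsl at 0.582 and Lgmn at 0.799, both lysosomal proteases, against 9.31%. For genes with 10 or more UMIs the median ratio was 1.56 over 30 list genes and 0.992 over 1149 genes of the table. Ndrg1 and Bnip3, genes known to be induced by low oxygen and chosen by name, were lower, both at 0.612, and Afp was at 0.824. Among leukocyte genes, Ctss had a ratio of 1.72 (1.13 to 2.60) and C1qa 1.65 (1.24 to 2.19). Intervals of Fcer1g, at 2.11 (0.689 to 6.44), Ptprc, at 1.22 (0.524 to 2.70), and Trbc2, at 1.05 (0.650 to 1.67), spanned 1. The part of leukocyte RNA in the split was not tested.

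The split was repeated in every set on the deposited scale, at the set's median of class II. The difference above minus not above was 0.754 to 1.03 natural log units for Cd74, 0.302 to 0.388 for H2-DMa, 0.430 to 0.477 for Gbp2 and 0.415 to 0.474 for Iigp1, an interferon-inducible GTPase, higher in 6 of 6 sets for each. Isg15, whose interval in the thinned counts spanned 1, was also higher in 6 of 6 sets, by 0.0248 to 0.101. Ndrg1 lay between -0.714 and -0.603, Bnip3 between -0.673 and -0.518 and Ctsl between -0.568 and -0.442, lower in 6 of 6. H2-K1 ranged from -0.0279 to 0.0606 and was higher in 2 of 6 sets, and C1qa from -0.0187 to 0.0374, also higher in 2 of 6. Ctss was higher in 6 of 6 sets, by 0.0458 to 0.0687, Fcer1g in 5, Ptprc in 4 and Trbc2 in 1. H2-Q1 was higher in 6 of 6, by 0.00872 to 0.0410. This split uses no thinning, so no set is matched on depth.

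**Figure D4:**
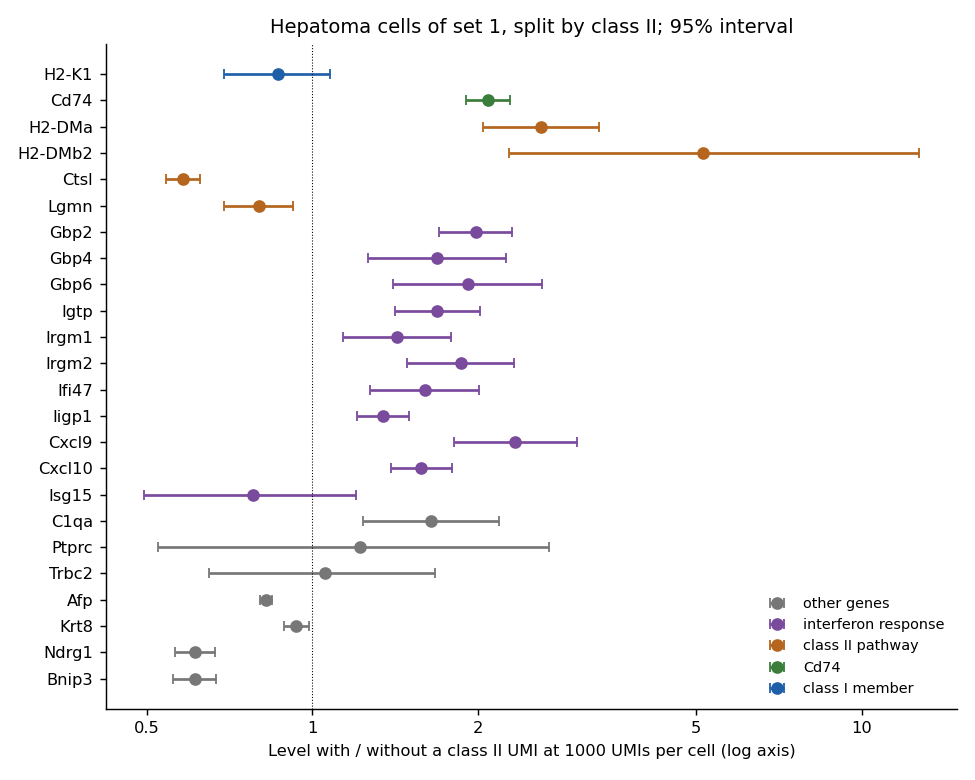
Ratio of the thinned level in hepatoma cells of set 1 that kept a class II UMI after thinning over that in cells that kept none. The axis is logarithmic, bars are exact 95% intervals and a dotted line marks 1. Cd74, H2-DMa, H2-DMb2 and all interferon-response genes shown except Isg15 lie to the right, Ctsl, Lgmn, Ndrg1 and Bnip3 to the left, and the interval of H2-K1 spans 1.

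Class II differed between macrophages of set 1 split by UMIs of Cxcl9 and Arg1. The 196 macrophages with a UMI of Cxcl9, a chemokine that draws T cells, and none of Arg1, an arginine-degrading enzyme, had 5560 CPM of class II, and the 79 with Arg1 and no Cxcl9 had 1687 CPM, a ratio of 3.30 (2.98 to 3.65) at median depths of 3397.5 and 2491 UMIs. The 171 macrophages with neither had 4137 CPM. Macrophages with UMIs of both genes were in none of these groups, and the other sets were not split in this way. Cd74 followed with a ratio of 2.49 (2.21 to 2.82), from 2951 against 1185 CPM, and H2-Q7 with 2.43 (1.49 to 4.21). H2-K1 differed little between the same cells, at 4332 against 3961 CPM, a ratio of 1.09 (1.02 to 1.17).

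Dendritic cells differed by subset, and not in the same way for each chain. Type 1 dendritic cells (39), which carry Xcr1 and Clec9a, had 10787 CPM of class II, type 2 cells (19) 9291 and mature Ccr7-positive cells (22) 6623. In summed UMIs the difference lay mainly in H2-Ab1, at 5004, 3849 and 1775 CPM. H2-Aa was at 3065, 3108 and 2556, and H2-Eb1 at 2718, 2334 and 2291. Cell medians per 10000 UMIs were lower in mature than in type 1 cells for H2-Aa too, at 12.3 against 31.0. The same held for H2-Eb1, at 9.67 against 25.2. Type 1 cells had 2.82 times the H2-Ab1 level of mature cells (2.36 to 3.40) but 1.20 times their H2-Aa (1.02 to 1.41). H2-K1 was highest in mature cells, at 3457 CPM against 2173 in type 1 and 1526 in type 2 cells, with a type 1 to mature ratio of 0.629 (0.540 to 0.733) and a type 1 to type 2 ratio of 1.42 (1.18 to 1.73). Over the 6 sets the mean H2-Ab1 value was 1.54 to 2.04 natural log units in mature and 3.23 to 3.77 in type 1 cells. H2-Aa was 2.23 to 2.71 and 2.78 to 3.37, and H2-Eb1 1.67 to 2.21 and 2.64 to 3.16. Each chain was thus lower in mature cells. H2-K1 was 3.34 to 3.53 and 2.87 to 3.12, and the ranges overlapped in none of these genes. The smallest of these set classes held 22 mature cells.

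H2-K1 was higher in T cells with Cd4 or Foxp3 than in CD8 T cells. The 1070 T cells with Cd8a or Cd8b1 and no Cd4 had 2262 CPM of H2-K1 and 630 of H2-Q7, at a median of 5090 UMIs. The 40 cells with Foxp3, the regulatory T cell factor, and no Cd8a or Cd8b1 UMI (median 4568 UMIs) had 3900 and 1010 CPM, ratios to the CD8 cells of 1.72 (1.62 to 1.84) and 1.60 (1.41 to 1.82). The 57 other cells with Cd4 (median 2913 UMIs) had 3125 CPM of H2-K1, a ratio of 1.38 (1.29 to 1.48), and 713 CPM of H2-Q7, a ratio of 1.13 whose interval reached from 0.972 to 1.31. Class II stayed at 83.8 to 172 CPM in these subsets, below the hepatoma level in each.

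The members were also read against all 2000 genes, calling a gene where log2(CPM + 1) differed by more than 1. In macrophages against hepatoma cells 6 of 6 members were higher (21.6% of the 2000 genes) and 0 lower (28.8%). T cells against hepatoma cells had 2 higher (21.3%) and 4 lower (32.4%), and fibroblasts against hepatoma cells likewise 2 higher (27.2%) and 4 lower (29.4%), the 2 being the class I genes in both. Dendritic cells against macrophages had 4 higher (14%), H2-Aa, H2-Ab1, H2-Eb1 and H2-Q7, and 0 lower (26.4%). Monocytes against macrophages had 0 higher (12.9%) and 1 lower (32.6%), H2-K1. Neutrophils against macrophages had 6 lower (27.9%) and 0 higher (20.6%). T cells against macrophages had 1 higher (18.8%), H2-Q7, and 4 lower (25.1%), with H2-K1 within the threshold. These comparisons share the macrophage or the hepatoma cells.

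The other genes of both routes were taken from a list of 75 antigen presentation and interferon genes, of which 36 were rows of the table. The class I route genes H2-D1 and B2m were on the list but were not rows. H2-Q1 was a row, with 5.10 CPM in hepatoma cells, 5.14 in neutrophils and at most 0.606 in the other classes. In macrophages against hepatoma cells 23 of the 36 were higher (21.6% of all genes) and 3 lower (28.8%), with a median log2 difference of 2.32 against -0.17 over all genes. The largest by level were the proteases Lgmn (3719 against 141 CPM) and Ctss (2166 against 13.6), the chemokines Cxcl10 (868 against 179) and Cxcl9 (785 against 48.4), the maturation marker Cd83 (362 against 1.96) and the Fc receptor chain Fcer1g (341 against 2.63). T cells against macrophages had 3 higher (18.8% of all genes) and 21 lower (25.1%), with a median of -1.78 against -0.24, led by Lgmn at 31.2 and Ctss at 113 CPM in T cells. Dendritic cells against macrophages had 4 higher, a share near the 14% of all genes, and 13 lower (26.4%), with a median of -0.50 against -0.24. Irf8, a transcription factor of type 1 dendritic cells, was higher at 1166 against 319 CPM, while Lgmn (229), Ctss (809), Ctsl (181), Cxcl10 (222) and Cxcl9 (310) were lower, so that the class II chains and the endosomal proteases did not keep one order.

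Monocytes had 10 of the 36 higher than macrophages (12.9% of all genes) and 6 lower (32.6%), with a median of 0.30 against -0.55. Gbp2 stood at 799 against 160 CPM, Fcer1g at 822 against 341 and Cd274 at 328 against 142, and Lgmn (633), Ctsl (373) and Iigp1 (103) were lower. Neutrophils against macrophages had 5 higher (20.6% of all genes) and 17 lower (27.9%), with a median of -0.80 against 0, and Cd274 at 360 CPM was among the higher. T cells against hepatoma cells had 15 higher (21.3% of all genes) and 12 lower, a share near the 32.4% of all genes, with a median of 0.73 against -0.13. H2-Q6, a neighbour of H2-Q7 in sequence and in the genome, was at 253 against 2.21 CPM, and Iigp1 at 44.2 against 261. Fibroblasts against hepatoma cells had 7 higher and 6 lower, both smaller shares than the 27.2% and 29.4% of all genes, with a median of -0.05 against -0.24, and Isg15 at 168 against 19.3 and Ifit1 at 62.8 against 2.43 CPM were among the higher.

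Reads shared between near-identical genes were checked next. None of 41 windows of 100 bases in the last 500 bases of any of the 6 genes was found exactly in a transcript of another gene of GENCODE M21, while 2 of 41 windows of H2-Q6 were. Reads of the H2-Q7 end can therefore in principle be told apart, but how the authors' counting treated reads that match several genes is not given in the sources used here.

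Likeness of pattern was measured as Pearson's r of log2(CPM + 1) over the 7 classes, which share libraries and depth and are given as a description. The class II genes and Cd74 had r of 0.986 to 0.996 with each other, and H2-DMa was among the 4 genes most like each of them, with r of 0.976 to 0.992, ranking second for H2-Aa and behind the other 3 for H2-Ab1, H2-Eb1 and Cd74. The fifth was Mpeg1 for H2-Aa (0.947), H2-DMb2 for H2-Ab1 (0.962), Rnase6 for H2-Eb1 (0.933) and Cd36 for Cd74 (0.937). H2-K1 was most like Celf2 (0.967), Tmsb4x (0.961), Cyba (0.946), AA467197 (0.934) and Pycard (0.931), and H2-Q7 most like Fyn (0.965), Sfxn1 (0.918), Nr4a2 (0.917), Eef1d (0.907) and Celf2 (0.901). H2-K1 and H2-Q7 had r of 0.851 with each other. Against the class II genes and Cd74, r was 0.190 to 0.304 for H2-K1 and 0.00535 to 0.0964 for H2-Q7.

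The 6 sets gave nearly the same picture on the deposited scale. Mean H2-K1 was lowest in hepatoma cells in 6 of 6 sets, at 0.332 in the lowest set, 0.345 in the median and 0.428 in the highest, against 3.66, 3.71 and 3.73 in macrophages and 3.13, 3.21 and 3.22 in T cells. Macrophages, T cells, dendritic cells and monocytes kept this order in 6 of 6 sets, although dendritic cells minus T cells gave differences as small as -0.0128, and -0.160 at most in size. H2-Q7 in T cells was 1.68, 1.72 and 1.84 and in dendritic cells 0.907, 1.02 and 1.15, with no overlap, while macrophages (0.342 to 0.468), monocytes (0.290 to 0.444), neutrophils (0.215 to 0.421) and fibroblasts (0.186 to 0.463) overlapped.

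Mean class II was 2.66, 2.81 and 2.97 in dendritic cells, 1.74, 1.97 and 2.09 in macrophages, 1.37, 1.76 and 1.88 in monocytes and 0.626, 0.717 and 0.721 in hepatoma cells. Hepatoma cells were above T cells by 0.489 to 0.557 and above neutrophils and fibroblasts in 6 of 6 sets, and below dendritic cells, macrophages and monocytes in 6 of 6. T cells (0.137 to 0.178), neutrophils (0.102 to 0.298) and fibroblasts (0.107 to 0.263) overlapped. Macrophages and monocytes overlapped too, with macrophages higher in 5 sets and monocytes in 1. That was set 4, in which class II was at its lowest in both hepatoma cells (0.626) and macrophages (1.74) while hepatoma H2-K1 was at its highest (0.428). Cd74 was 1.17, 1.26 and 1.33 in hepatoma cells against 2.28, 2.54 and 2.63 in macrophages.

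**Figure D5:**
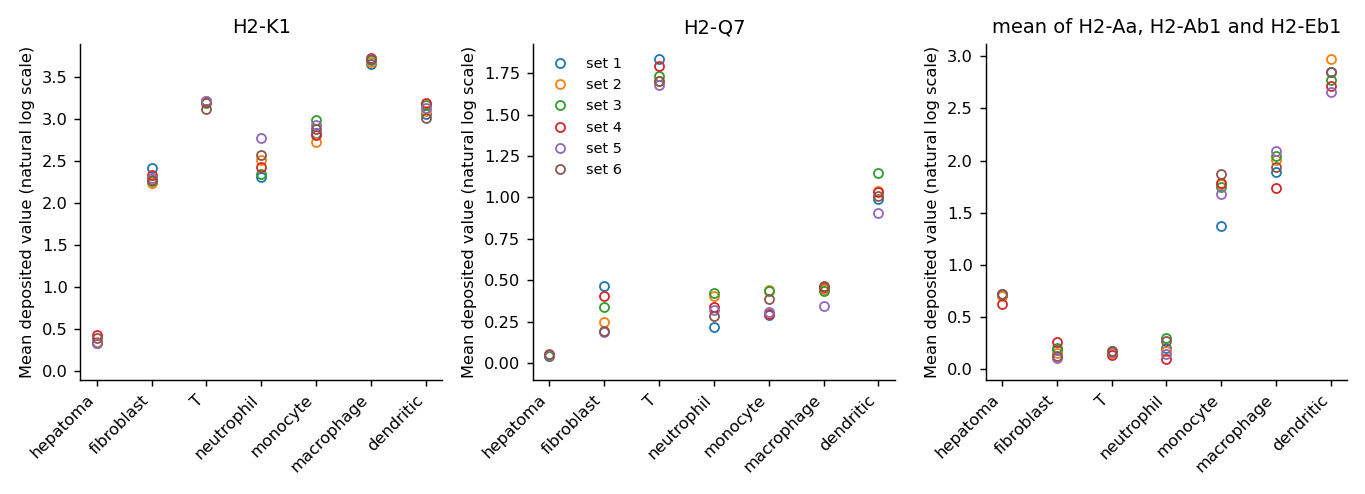
Mean deposited value (natural log scale) of H2-K1, H2-Q7 and the mean of the 3 class II genes in each class, with 1 circle for each of the 6 sets, which are not mapped to treatment groups. H2-K1 in hepatoma cells stays at or below 0.428 in every set, and class II in hepatoma cells stays above T cells, neutrophils and fibroblasts and below monocytes, macrophages and dendritic cells.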

How the data were processed

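Per the labels' protocols and the submitters' processing notes, reads were aligned with STAR 2.7.2b, UMIs were counted per gene with PISA, and cells were chosen with barcodeRanks of DropletUtils. The notes name GRCh38 and mm10, and 1984 of the 2000 symbols were found among GENCODE M21 mouse symbols. Values were deposited as natural log values, in set 1 the log of 1 plus UMIs per 10000, from which a UMI total was found for 100% of the cells, with 100% of values above 0 giving whole UMIs within 0.01. Totals run from 1001 to 261833. In sets 2 to 6 every cell has values below 0, from a step not given in the sources used here, so only mean values and differences are reported there. All 53528 columns belong to no known sample. Without the set number 22421 of the 53528 cell names are distinct, and cell barcodes shared between sets could not be counted.

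Marker values were scaled within each set, and a class was given where its mean marker score was at least 0.25, led the next by 0.1 and had 2 or more markers on. Hepatoma cells needed a score above 0.5 with every other class below 0.25. Doublets were called in set 1 with Scrublet in scanpy 1.11.5 at an expected 6%. Levels are summed UMIs per 1000000 (CPM), the pseudocount is 1 CPM, and ratios have exact conditional Poisson intervals. These covered the true ratio as intended on simulated Poisson counts, which follow the model of the interval. That simulation cannot show coverage where cells vary beyond counting error. Python 3.11.15 and scipy 1.17.1 were used. Named genes are all members, up to 6 listed genes past the threshold per comparison by CPM, and the 5 genes with the highest r for each member. The members, lists and tests were chosen with earlier results of these data known, and the gate thresholds, leukocyte genes, hepatoma split and subsets after values were seen.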

Additional observations from a re-analysis of the deposited data

How the results depend on the processing

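No value changed direction under any alternative run. Of the alternative values, 42 were called the same and 25 lay outside the counting interval of the reported value. The counts of sets and of list genes have no such interval and were called the same within a fixed factor. On the log2 scale, class II in dendritic cells over macrophages (1.15) was 1.09 with a smaller gate margin, 1.23 after thinning and 1.25 with the table's own UMIs as denominator. Class II in monocytes over macrophages (-0.24) was -0.42 with a larger and -0.11 with a smaller margin, -0.40 as a mean of cells and -0.45 after thinning. Class II in macrophages over hepatoma cells (3.12) was 3.09 with a larger margin, 3.08 after thinning, 2.82 with the table's denominator and 3.25 with only hepatoma cells that lacked leukocyte UMIs. Class II in T cells over macrophages (-5.12) was -5.02 with a smaller margin, -5.01 as a mean of cells and -4.73 with the table's denominator, and in fibroblasts over hepatoma cells (-2.42) it was -2.95 with the latter.

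H2-K1 in macrophages over hepatoma cells (6.58) was 6.51 with doublets kept, 6.02 as a mean of cells, 6.07 after thinning, 6.28 with the table's denominator, 6.66 with a higher hepatoma score and 6.64 without leukocyte UMIs. H2-K1 in T cells over macrophages (-0.86) was -0.90 with a larger margin, -0.81 as a mean of cells and -0.47 with the table's denominator. The share of hepatoma cells with a class II UMI was 32.2% thinned and 89.5% unthinned, where fewer UMIs per cell are drawn by construction. For the other shifts the cause was not tested. The higher hepatoma score and the leukocyte-free cells were chosen after seeing the data. A margin of 0.2 left 2368 macrophages and 472 monocytes, one of 0.05 gave 3511 and 882, and a hepatoma score above 0.6 left 18386 hepatoma cells. The 74 fibroblasts, 62 monocytes and the subsets limit the precision of their values. No paired analysis was possible because the columns carry neither a group nor a replicate number.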
